A study of Caenorhabditis elegans with 6 samples.

Results

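The genes described here are the Hedgehog-related and Patched-related genes of *Caenorhabditis elegans*, chosen by name: every gene whose WormBase symbol starts with wrt- (warthog), grd- (groundhog), grl- (ground-like), ptc- (Patched) or ptr- (Patched-related), together with *hog-1* and *qua-1* (quahog). The rule used no measured value. It found 85 of the 46904 genes in the count tables, and all 85 were protein coding. They comprised 10 wrt, 16 grd and 31 grl genes, *hog-1*, *qua-1*, 2 ptc genes and 24 ptr genes.

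In flies and vertebrates a Hedgehog ligand binds Patched, a membrane protein with a sterol-sensing domain, and this binding frees the transducer Smoothened. *C. elegans* lacks a canonical Hedgehog ligand and Smoothened but carries large families of secreted Hedgehog-related proteins and of Patched-related membrane proteins. Many of them are made in the epidermis and act in molting and in the apical extracellular matrix that becomes the cuticle, and transcripts of many of them rise and fall with each larval molting cycle.

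The data were poly(A) RNA-seq counts of whole, untreated L1 larvae that had been fed *E. coli* on agar plates, with 2 libraries from each of 3 strains. The strains were *xpc-1* (TG2226, allele tm3886), which lacks the damage sensor of global nucleotide excision repair, *csb-1* (RB1801, allele ok2335), which lacks the factor that starts transcription-coupled repair, and wild-type N2. The study used each strain's own RNA-seq to group genes by expression level, so that repair could be read against transcription. No source states that the 2 libraries of a strain came from separate cultures, so p-values measure only the spread between these libraries. In whole animals, fewer cells of a type and less RNA per cell cannot be told apart. The study's RNA-seq methods give no hour of collection within L1. A difference between strains or libraries and a difference in larval age therefore cannot be told apart.

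The libraries held between 41643033 and 48371365 reads on genes. Levels are given as CPM, the counts scaled to a common library size with TMM factors (trimmed mean of M values), and as TPM, which also divides by exon length, where genes are compared with each other. The *xpc-1* gene itself was at 18.0 and 17.9 CPM in *xpc-1*, against 43.5 and 40.1 CPM in wild-type. The *csb-1* gene was at 17.5 and 8.04 CPM in *csb-1*, against 20.6 and 22.9 CPM in wild-type, so replicate 1 of *csb-1* was close to the wild-type level. These are counts over the whole gene, which can include exons outside a deletion. The 2 *csb-1* libraries stood apart from each other. Across all genes tested their Spearman correlation was 0.785, against 0.990 for *xpc-1* and 0.990 for wild-type. Over the 81 members that reached 10 counts in 2 or more libraries it was 0.387 for *csb-1*, against 0.994 for *xpc-1* and 0.991 for wild-type. Each *csb-1* library is therefore given apart.

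Of the 85 members, 81 reached 10 counts in 2 or more of the 6 libraries. *grl-29* and *grl-31* each had 8 counts in all 6 libraries together. In wild-type, the median member had 14.8 TPM. The family medians were 19.1 TPM for wrt, 8.89 TPM for grd, 3.45 TPM for grl, 17.9 TPM for ptr and 84.9 TPM for ptc. The grl family had both the highest and the lowest members. *grl-4* had 399 ± 62.3 TPM and *grl-16* had 296 ± 27.0 TPM in wild-type (SD, n = 2), and their spreads do not overlap. Below them came the groundhog gene *grd-5* at 114 ± 2.52 TPM and *ptc-1* at 104 ± 1.36 TPM in wild-type (SD, n = 2). The genes were spread over all chromosomes, and 32 of the 85 (37.6%) lay on chromosome V, which holds 25.1% of all protein-coding genes. In 25 members some exon bases overlapped another gene, and since the counting did not use strand, reads of the overlapping genes cannot be told apart there.

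Summed by family, the secreted families differed in how they stood in the mutants. The wrt genes together had 540 and 568 CPM in *xpc-1*, against 347 and 357 CPM in wild-type. The grd genes had 188 and 181 CPM in *xpc-1*, against 226 and 229 CPM in wild-type. The *xpc-1* libraries were thus above wild-type in the first sum and below it in the second, with no overlap in either. The grl sums overlapped, at 777 and 852 CPM in *xpc-1*, against 824 and 945 CPM in wild-type. The ptr sum was 1495 and 1531 CPM in *xpc-1*, against 1315 and 1370 CPM in wild-type, without overlap. The rises of *ptr-25* and *ptr-4* weighed most in that ptr order. *ptr-25* had 238 and 248 CPM in *xpc-1*, against 114 and 131 CPM in wild-type. *ptr-4* had 227 and 244 CPM in *xpc-1*, against 133 and 146 CPM in wild-type. The family did not rise as a whole, since in the test described below 8 ptr genes were higher and 8 lower. The ptc sum was 539 and 556 CPM in *xpc-1*, against 576 and 616 CPM in wild-type. That ptc order belongs to *ptc-1*, since without it the mean was 225 CPM in *xpc-1*, against 213 CPM in wild-type. A sum gives most weight to its most abundant genes, so the single genes are described next.

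In *csb-1* the same sums split between the libraries. The wrt genes were at 1000.0 CPM in replicate 1 of *csb-1* and 34.3 CPM in replicate 2. *qua-1* was at 166 CPM in replicate 1 and 4.36 CPM in replicate 2. These were the widest gaps among the families, 29.1-fold for wrt and 38.0-fold for *qua-1*. The grl sum differed 7.92-fold, at 867 CPM in replicate 1 and 110 CPM in replicate 2. The ptr sum differed 3.36-fold, at 1914 CPM in replicate 1 and 570 CPM in replicate 2. The grd sum, at 165 CPM in replicate 1 and 208 CPM in replicate 2, and the ptc sum, at 657 CPM in replicate 1 and 453 CPM in replicate 2, differed least. The grd sum joins opposite changes, with 9 of 14 members more than 4-fold higher in replicate 1 and 4 in replicate 2. In the plot of summed CPM, replicate 2 of *csb-1* was the lowest library in every family but grd, where replicate 1 of *csb-1* was lowest.

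**Figure D1:**
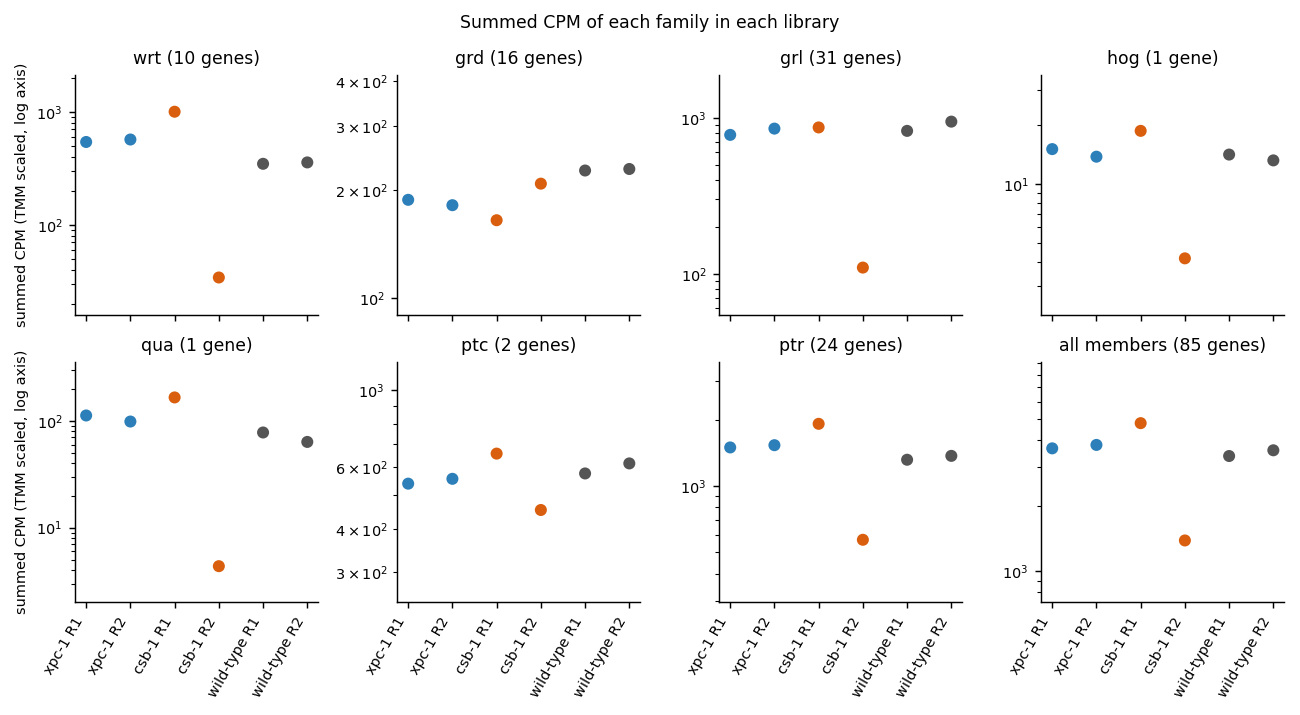
Summed CPM of each family and of all 85 members (y axes, log scale, TMM-scaled CPM) in each of the 6 libraries (x axes). Each point is 1 library, with blue for *xpc-1*, orange for *csb-1* and grey for wild-type. The wrt genes sat at 540 and 568 CPM in *xpc-1*, at 1000.0 and 34.3 CPM in *csb-1* and at 347 and 357 CPM in wild-type.

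The first comparison asked which members differed between *xpc-1* and wild-type larvae. It was fitted on the 4 libraries of these strains with edgeR's quasi-likelihood test over 17924 genes, and a gene was called at an adjusted p under 0.05 (Benjamini-Hochberg). Calls fell on 41 of the 80 members tested, with 24 of them higher in *xpc-1* and 17 lower. That is 51.2% of the members, while 37.1% of all genes tested were called. The higher calls were 24 of 80, where 20.0% of all genes were called higher, and the lower calls were 21.2% of the members, where 17.1% of all genes were called lower. DESeq2 called 40 members and 36.4% of all genes. The median log2 fold change was 0.10 over the members and -0.02 over all genes. In 63 of the 80 members the *xpc-1* and wild-type libraries did not overlap (78.8%), which held for 69.3% of all genes. Both *xpc-1* libraries were above wild-type in 35 of these (33.3% of all genes) and below it in 28 (36% of all genes). The following limits apply to every call here. A fit of all 6 libraries, whose estimate of the spread includes the 2 *csb-1* libraries, called 0 members and 0 of all genes (267 genes had an unadjusted p under 0.05 in edgeR). Leaving out 1 library at a time left 32 or 33 members called (40.5% to 41.8% of those tested), where 25.8% to 28.1% of all genes were called, and 23 of the 41 calls, 15 higher and 8 lower, were made in each of these 4 fits.

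Among the warthog genes 4 of 10 rose in *xpc-1*, where 20.0% of all genes were called higher, and 1 fell, where 17.1% were called lower. *wrt-10* had 120 and 124 CPM in *xpc-1*, against 62.8 and 65.8 CPM in wild-type, and rose by a log2 fold change of 0.94 (SE 0.087, edgeR adjusted p = 0.000108). *wrt-2*, whose promoter is widely used to mark epidermal seam cells, had 145 and 151 CPM in *xpc-1*, against 77.1 and 83.9 CPM in wild-type (log2 fold change 0.89, SE 0.089, edgeR adjusted p = 0.000158). *wrt-1* had 149 and 158 CPM in *xpc-1*, against 96.7 and 86.9 CPM in wild-type (log2 fold change 0.76, SE 0.093, edgeR adjusted p = 0.0004). In all 3 genes both *xpc-1* libraries lay above both wild-type libraries, with gaps larger than the spread within either strain. *wrt-6* also passed, with a log2 fold change of 0.61, but not without wild-type replicate 1 (0.54, edgeR adjusted p = 0.0565) or without *xpc-1* replicate 2 (0.43, edgeR adjusted p = 0.0562).

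*wrt-8* was the warthog gene that fell. It had 13.9 and 11.2 CPM in *xpc-1*, against 19.6 and 19.9 CPM in wild-type (log2 fold change -0.64, SE 0.14, edgeR adjusted p = 0.00752), and the strains did not overlap. The call was lost without *xpc-1* replicate 2 (-0.49, edgeR adjusted p = 0.0604). *wrt-5*, a gene needed for embryonic development, had 17.3 and 22.3 CPM in *xpc-1*, against 16.7 and 19.4 CPM in wild-type, and the libraries overlapped.

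The groundhog genes went in both directions, with 3 of 15 tested members called higher in *xpc-1* and 5 lower. The higher share, 20.0%, equalled that of all genes, and the lower share was 33.3%, against 17.1% of all genes. *grd-11* had 5.37 and 5.67 CPM in *xpc-1*, against 2.53 and 3.07 CPM in wild-type (log2 fold change 1.00, SE 0.22, edgeR adjusted p = 0.00778). Without wild-type replicate 1 it was not called (0.83, edgeR adjusted p = 0.0666). *grd-16* and *grd-1* were the other called-higher members, with log2 fold changes of 0.77 and 0.50, and *grd-1* lost its call without wild-type replicate 1 (0.49, edgeR adjusted p = 0.0957), without wild-type replicate 2 (0.47, edgeR adjusted p = 0.106) or without *xpc-1* replicate 1 (0.39, edgeR adjusted p = 0.158). *grd-5*, the groundhog gene with the most TPM in wild-type, had 44.6 and 39.8 CPM in *xpc-1*, against 42.3 and 43.8 CPM in wild-type, and the strains overlapped.

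Of the 5 groundhog genes lower in *xpc-1*, 3 were next to one another on chromosome IV on the same strand: *grd-13* (3438312 to 3439503), *grd-3* (3439655 to 3440453) and *grd-10* (3441055 to 3441770), in WBcel235 coordinates. *grd-13* had 21.8 and 21.7 CPM in *xpc-1*, against 34.04 and 37.4 CPM in wild-type (log2 fold change -0.70, SE 0.11, edgeR adjusted p = 0.00147). *grd-3* had 6.99 and 10.2 CPM in *xpc-1*, against 14.6 and 17.8 CPM in wild-type (log2 fold change -0.89, SE 0.20, edgeR adjusted p = 0.00743). *grd-10*, another seam cell marker, had 26.5 and 19.8 CPM in *xpc-1*, against 42.1 and 28.0 CPM in wild-type (log2 fold change -0.58, SE 0.20, edgeR adjusted p = 0.0485). All 3 neighbours were below wild-type in both *xpc-1* libraries. The wild-type libraries of *grd-10* were far apart, and its call was lost without wild-type replicate 1 (-0.29, edgeR adjusted p = 0.325) or *xpc-1* replicate 2 (-0.38, edgeR adjusted p = 0.209). *grd-3* was not called without wild-type replicate 2 (-0.76, edgeR adjusted p = 0.0675), and *grd-13* was called whichever library was left out.

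The other 2 were *grd-14*, at 18.7 and 19.4 CPM in *xpc-1*, against 30.5 and 33.3 CPM in wild-type (log2 fold change -0.72, SE 0.11, edgeR adjusted p = 0.00141), and *grd-12* (log2 fold change -0.48). *grd-12* lost its call without wild-type replicate 2 (-0.41, edgeR adjusted p = 0.129) or *xpc-1* replicate 1 (-0.39, edgeR adjusted p = 0.152).

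The ground-like family was the largest, with 8 of 27 tested members called higher and 3 lower in *xpc-1*. This was the smallest share among the 4 large families, 40.7%, and near the 37.1% of all genes called. The family also had the lowest median TPM of the 4 in wild-type, 3.45, and a part of level in this share was not tested. *grl-4*, the member with the most TPM in wild-type, had 118 and 142 CPM in *xpc-1*, against 211 and 265 CPM in wild-type, and fell by 0.85 on the log2 scale (SE 0.13, edgeR adjusted p = 0.00122). *grl-16*, next in TPM, had 300 and 345 CPM in *xpc-1*, against 335 and 384 CPM in wild-type, and was not called (log2 fold change -0.14, SE 0.11, edgeR adjusted p = 0.354). *grl-7*, whose protein is found in the apical extracellular matrix, had 119.2 and 126 CPM in *xpc-1*, against 73.5 and 79.1 CPM in wild-type (log2 fold change 0.70, SE 0.089, edgeR adjusted p = 0.000492). The 3 ground-like genes with the most TPM over the 6 libraries thus went different ways in *xpc-1*.

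*grl-25* had the highest log2 fold change of any called member, 2.47 (SE 0.45, edgeR adjusted p = 0.00303). It had 1.78 and 1.75 CPM in *xpc-1*, against 0.328 and 0.315 CPM in wild-type, which are few reads, and it shares 399 exon bases with genes on the other strand. *grl-2*, a gene of the excretory duct and pore cells, had 7.37 and 8.998 CPM in *xpc-1*, against 3.32 and 4.75 CPM in wild-type (log2 fold change 1.04, SE 0.23, edgeR adjusted p = 0.00708). Its call was lost without wild-type replicate 1 (0.77, edgeR adjusted p = 0.0606). *grl-13* had 1.65 and 2.07 CPM in *xpc-1*, against 3.18 and 4.20 CPM in wild-type (log2 fold change -0.97, SE 0.29, edgeR adjusted p = 0.0258). It was not called without wild-type replicate 2 (-0.77, edgeR adjusted p = 0.165) or *xpc-1* replicate 1 (-0.81, edgeR adjusted p = 0.115). The other called members of the family were *grl-5*, *grl-10*, *grl-12*, *grl-15* and *grl-18*, higher by log2 fold changes of 0.38 to 0.82, and *grl-6*, lower (-0.83). Of these, *grl-10* and *grl-15* were called whichever library was left out. Calls were lost for *grl-5* without wild-type replicate 1 (0.21) or *xpc-1* replicate 2 (0.30), for *grl-6* without wild-type replicate 2 (-0.71), and for *grl-12* without wild-type replicate 2 (0.57) or *xpc-1* replicate 1 (0.71). *grl-18* was not called without any 1 of the 4 libraries, with log2 fold changes of 0.67 to 0.77.

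*qua-1*, which is needed for molting, had 112 and 98.5 CPM in *xpc-1*, against 77.8 and 63.5 CPM in wild-type (log2 fold change 0.60, SE 0.12, edgeR adjusted p = 0.00433), without overlap. *hog-1* had 15.1 and 13.8 CPM in *xpc-1*, against 14.1 and 13.2 CPM in wild-type, and the strains overlapped.

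The 2 Patched homologues were not called. *ptc-1*, which acts in cytokinesis of the germline, had 329 and 317 CPM in *xpc-1*, against 379 and 388 CPM in wild-type. Its log2 fold change was -0.23 (SE 0.087, edgeR adjusted p = 0.0677), and both *xpc-1* libraries lay below both wild-type libraries. *ptc-3*, which lowers cellular cholesterol and is needed for growth, had 210 and 239 CPM in *xpc-1*, against 198 and 228 CPM in wild-type (log2 fold change 0.10, SE 0.11, edgeR adjusted p = 0.523), with overlap.

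The Patched-related genes had the largest share of calls among the 4 large families, 16 of 24, with 8 higher and 8 lower in *xpc-1*. That is 66.7%, against 37.1% of all genes. All 24 reached 10 counts in 2 or more libraries, and a part of level or gene length in this share was not tested. Among genes with at least 10 counts in every fitted library, 42.6% were called. *ptr-25* had 238 and 248 CPM in *xpc-1*, against 114 and 131 CPM in wild-type (log2 fold change 1.01, SE 0.097, edgeR adjusted p = 0.000135). *ptr-4*, which is needed for molting and for the apical extracellular matrix, had 227 and 244 CPM in *xpc-1*, against 133 and 146 CPM in wild-type (log2 fold change 0.77, SE 0.092, edgeR adjusted p = 0.00037). Both genes were called whichever library was left out. *ptr-18*, which keeps progenitor cells quiescent in newly hatched L1 larvae, had 135 and 132 CPM in *xpc-1*, against 110 and 116 CPM in wild-type (log2 fold change 0.26, SE 0.085, edgeR adjusted p = 0.0396). This small difference was not called when any 1 of the 4 libraries was left out, with log2 fold changes of 0.19 without wild-type replicate 1, 0.28 without wild-type replicate 2, 0.24 without *xpc-1* replicate 1 and 0.28 without *xpc-1* replicate 2.

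On the lower side, *ptr-13* had 8.51 and 5.399 CPM in *xpc-1*, against 18.1 and 18.0 CPM in wild-type, the largest fall among the called members (log2 fold change -1.36, SE 0.21, edgeR adjusted p = 0.00112). *ptr-8* had 26.5 and 27.8 CPM in *xpc-1*, against 50.6 and 52.1 CPM in wild-type (log2 fold change -0.90, SE 0.099, edgeR adjusted p = 0.000246). *ptr-12* had 18.8 and 21.8 CPM in *xpc-1*, against 34.8 and 38.1 CPM in wild-type (log2 fold change -0.82, SE 0.12, edgeR adjusted p = 0.000998). The wild-type libraries were above both *xpc-1* libraries in all 3, and each was called whichever library was left out. The other called members were *ptr-10*, *ptr-15*, *ptr-19*, *ptr-2* and *ptr-22*, higher by log2 fold changes of 0.42 to 0.74, and *ptr-3*, *ptr-14*, *ptr-24*, *ptr-23* and *ptr-20*, lower by 0.31 to 0.72 on the log2 scale. Of these 10, *ptr-3* lost its call without wild-type replicate 2 (-0.57) or *xpc-1* replicate 1 (-0.61), and *ptr-23* without *xpc-1* replicate 1 (-0.35) or replicate 2 (-0.36). *ptr-22* lost it without wild-type replicate 1 (0.27), *xpc-1* replicate 1 (0.39) or *xpc-1* replicate 2 (0.46), and *ptr-20* without any 1 of the 4 libraries (-0.34 to -0.28).

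**Figure D2:**
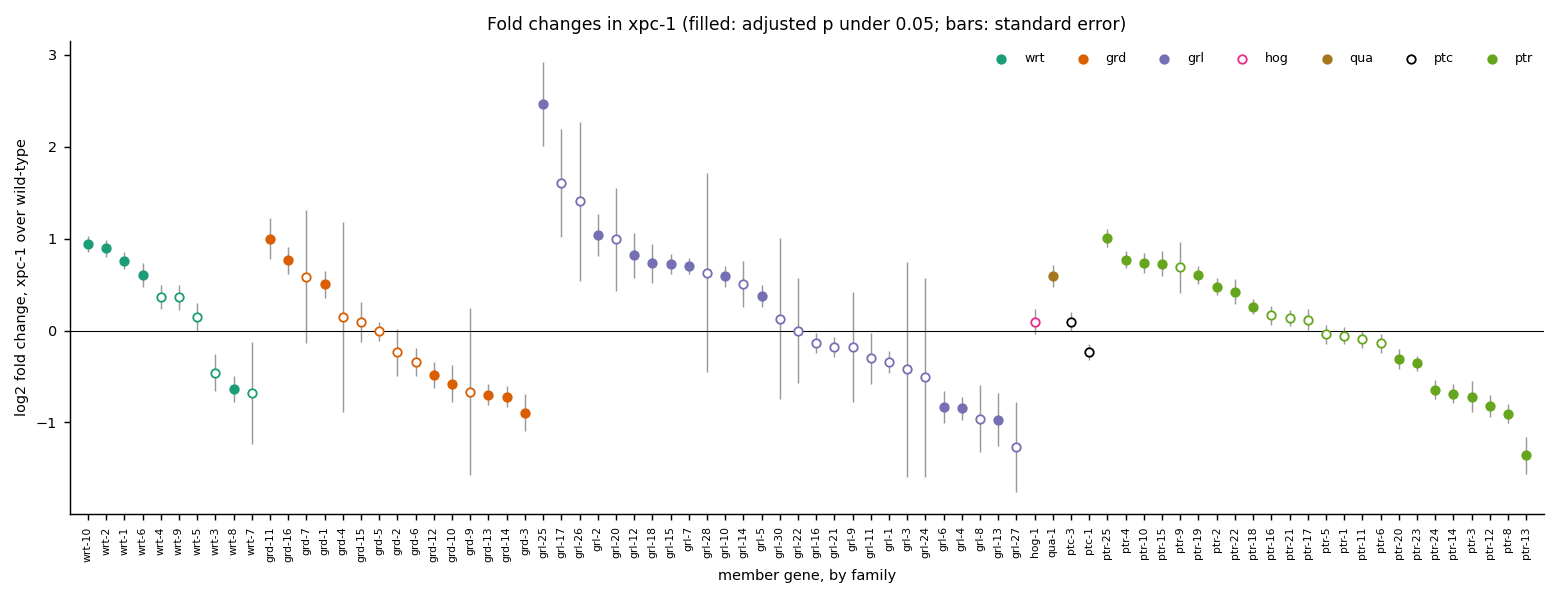
Log2 fold change of *xpc-1* over wild-type (y axis) for the 80 tested members, grouped by family along the x axis. Points are edgeR estimates from 4 libraries with bars of 1 standard error, and filled points passed an adjusted p of 0.05. The filled points lie on both sides of 0, with 24 above and 17 below.

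Other transcripts moved with these calls, and their part in the results was not tested. The early embryo markers *pie-1*, *pos-1* and *mex-5* all rose in *xpc-1* (3 of 3), with a summed level of 194 and 209 CPM in *xpc-1*, against 52.6 and 54.3 CPM in wild-type. The germline markers *glh-1*, *pgl-1* and *pgl-3* all rose (3 of 3), at 63.9 and 62.1 CPM in *xpc-1*, against 42.2 and 36.8 CPM in wild-type. Of the 4 epidermal markers 3 rose (*dpy-7*, *elt-1* and *che-14*), at 386 and 426 CPM for the 4 genes in *xpc-1*, against 252 and 264 CPM in wild-type. The body wall muscle markers *unc-54*, *myo-3* and *unc-89* all fell (3 of 3), at 4289 and 4278 CPM in *xpc-1*, against 6010 and 6427 CPM in wild-type. Among the intestinal markers *asp-1* fell (log2 fold change -1.08) while *elt-2* and *ges-1* were not called, for a sum of 1006 and 1166 CPM in *xpc-1*, against 2021 and 2541 CPM in wild-type. The pharyngeal markers split, with *myo-2* lower (-0.63) and *pha-4* higher (0.43), and so did the neuronal markers, with *rab-3* (-0.47) and *ric-4* (-0.57) lower and *unc-119* higher (0.57). The pharyngeal sum was 742 and 777 CPM in *xpc-1*, against 966 and 1099 CPM in wild-type, and the neuronal sum was 226 and 245 CPM in *xpc-1*, against 308 and 304 CPM in wild-type. The 6 vitellogenin genes, which mark adults, were low in sum, at 7.04 and 8.44 CPM in *xpc-1*, against 7.48 and 7.71 CPM in wild-type. None of these markers was at 0 in both libraries of a strain.

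The second comparison set *csb-1* against wild-type. The fit of these 4 libraries tested 79 members, of which 0 were called, as were 0 of all 17730 genes (0.0%). In simulated counts with the spread of this fit, 0 of 50 genes changed 8-fold were recovered. A count of 0 therefore does not show unchanged levels. In edgeR 507 genes and 3 members had an unadjusted p under 0.05, and DESeq2 called 69 genes (0.389%) and 0 members. In 22 of the 79 members the *csb-1* and wild-type libraries did not overlap (27.8%), which held for 33.0% of all genes. Both *csb-1* libraries were above wild-type in 2 of these (13.6% of all genes) and below it in 20 (19.4% of all genes).

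The 3 members with an unadjusted p under 0.05, named here after their values were seen, were lower in both *csb-1* libraries. *grl-4* had 42.1 and 87.6 CPM in *csb-1*, against 211 and 265 CPM in wild-type (log2 fold change -1.87, SE 0.50, edgeR unadjusted p = 0.0211, adjusted p = 0.997). *grl-13* had 0.555 and 0.172 CPM in *csb-1*, against 3.18 and 4.20 CPM in wild-type (log2 fold change -3.32, SE 0.92, edgeR unadjusted p = 0.0236, adjusted p = 0.997). *ptr-3* had 4.40 and 5.74 CPM in *csb-1*, against 12.6 and 15.6 CPM in wild-type (log2 fold change -1.47, SE 0.47, edgeR unadjusted p = 0.0369, adjusted p = 0.997). None of the 3 passed the correction over all genes.

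With a single *csb-1* library set against wild-type, the spread comes from the 2 wild-type libraries alone, and the lone library is assumed to vary like them. Replicate 1 of *csb-1* then had 52 of 77 members called, 32 higher and 20 lower, where 55.9% of all genes were called (27.5% higher and 28.3% lower). Replicate 2 of *csb-1* had 64 of 77 called, 8 higher and 56 lower, where 53.9% of all genes were called (24.3% higher and 29.6% lower). Of the 75 members in both fits, 49 had opposite signs. These fits compare single libraries with wild-type and not the strains. *grl-4*, *grl-13* and *ptr-3* were lower than wild-type in both *csb-1* libraries. These are the same values for which they were named, so this adds no support.

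Between the 2 *csb-1* libraries no test is possible, so the values are a description of these libraries. Of 80 members with a ratio, 51 were more than 4-fold higher in replicate 1, where 17% of all genes were, and 11 were more than 4-fold higher in replicate 2, where 15.4% of all genes were. Any difference at all favoured replicate 1 in 60 members (75.0%) and in 51.9% of all genes. The median member was 9.38-fold higher in replicate 1, against 1.06-fold over all genes. A library at 0 was set to 3 counts in a ratio, which makes that ratio a bound. Scaling by library size alone raised every ratio 1.504-fold, giving 54 members more than 4-fold higher in replicate 1 (23.6% of all genes) and 9 in replicate 2 (10.6% of all genes).

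Of the 10 wrt genes, 8 were more than 4-fold higher in replicate 1 and 0 in replicate 2, with a median of 177-fold. *wrt-2* was at 246 CPM in replicate 1 of *csb-1* and 0.201 CPM in replicate 2, 1226-fold apart (counting interval 595 to 3050). *wrt-10* was at 202 CPM in replicate 1 and 0.230 CPM in replicate 2, 880-fold apart (counting interval 447 to 2039), and *wrt-1*, its neighbour on the opposite strand of chromosome II, was at 305 CPM in replicate 1 and 1.15 CPM in replicate 2. *wrt-8* was at 39.5 CPM in replicate 1 and was at 0 in replicate 2, at least 459-fold apart at the floor of 3 counts (lower end of the counting interval 373). Intervals cover counting error only and are too narrow even for that, since both mates of a read pair were counted. *wrt-5*, at 20.5 CPM in replicate 1 and 21.7 CPM in replicate 2, and *wrt-3*, at 5.38 CPM in replicate 1 and 8.44 CPM in replicate 2, were the 2 warthog genes that did not differ 4-fold.

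In the grl family, 18 of 28 members were more than 4-fold higher in replicate 1 and 5 in replicate 2. *grl-7* had the widest ratio of all members, 232 CPM in replicate 1 of *csb-1* and 0.172 CPM in replicate 2, 1348-fold apart (counting interval 619 to 3675). *grl-16* was at 262 CPM in replicate 1 and 0.344 CPM in replicate 2, 760-fold apart (counting interval 435 to 1472). Wild-type had 335 and 384 CPM of *grl-16*, so replicate 1 was a little below wild-type and replicate 2 was almost without this transcript. *grl-4* was an exception among the abundant genes, at 42.1 CPM in replicate 1 and 87.6 CPM in replicate 2.

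The grd family held 4 of the 11 reverse cases, and the grl family 5. In the grd family, 9 of 14 members were more than 4-fold higher in replicate 1 and 4 in replicate 2. The neighbours *grd-13*, *grd-3* and *grd-10* were 3 of those 4. *grd-10* was at 4.44 CPM in replicate 1 of *csb-1* and 93.6 CPM in replicate 2, 21.1-fold higher in replicate 2. *grd-13* was at 5.76 CPM in replicate 1 and 67.9 CPM in replicate 2, 11.8-fold higher in replicate 2. *grd-3* was at 3.03 CPM in replicate 1 and 33.9 CPM in replicate 2. All 3 had wild-type levels between the 2 *csb-1* libraries. *grd-5* was at 46.6 CPM in replicate 1 and 6.20 CPM in replicate 2, and *grd-14* was at 11.9 CPM in replicate 1 and 0.287 CPM in replicate 2, so the family did not move as 1 group.

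**Figure D3:**
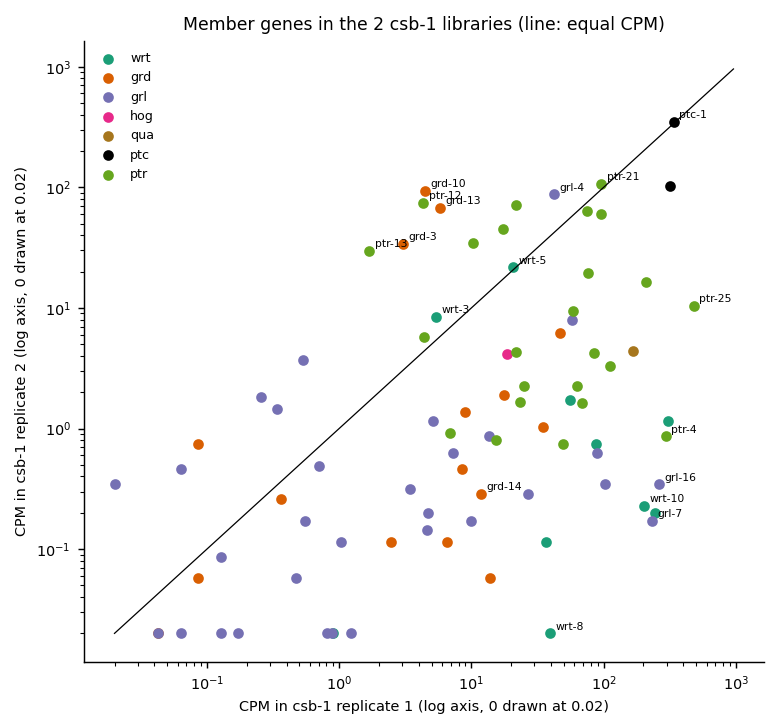
CPM of the 85 members in replicate 1 of *csb-1* (x axis) and replicate 2 (y axis), both on log axes with 0 drawn at 0.02 CPM. Each point is 1 gene coloured by family, and the line marks equal CPM. Most points, 60 of the 80 with a ratio, lie below the line, and *grd-10*, *ptr-12*, *grd-13*, *ptr-13* and *grd-3* lie far above it.

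Among the receptor-like genes, *ptc-1* was nearly equal in the *csb-1* libraries under TMM scaling, at 340 CPM in replicate 1 and 350 CPM in replicate 2. Both were below wild-type at 379 and 388 CPM. Scaling by library size alone raises replicate 1 over replicate 2 by 1.504-fold in every gene. *ptc-3* was at 317 CPM in replicate 1 and 103 CPM in replicate 2. Of the 24 ptr genes, 14 were more than 4-fold higher in replicate 1 and 2 in replicate 2. *ptr-4* was at 294 CPM in replicate 1 of *csb-1* and 0.861 CPM in replicate 2, *ptr-25* was at 479 CPM in replicate 1 and 10.4 CPM in replicate 2, and *ptr-18* was at 209 CPM in replicate 1 and 16.4 CPM in replicate 2. All 3 had wild-type levels between these values. The 2 reverse cases were *ptr-13*, at 1.69 CPM in replicate 1 and 29.8 CPM in replicate 2 (17.7-fold higher in replicate 2), and *ptr-12*, at 4.33 CPM in replicate 1 and 74.1 CPM in replicate 2 (17.1-fold). *ptr-21* was at 96.0 CPM in replicate 1 and 107 CPM in replicate 2, and *ptr-5* was at 74.6 CPM in replicate 1 and 64.2 CPM in replicate 2, so some Patched-related genes were at like levels in libraries where *ptr-4* differed 342-fold. *hog-1* was at 18.7 CPM in replicate 1 of *csb-1* and 4.16 CPM in replicate 2.

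Set against the wild-type mean, the gap came mostly from low levels in replicate 2 of *csb-1*. It was more than 4-fold below wild-type in 43 of 81 members, where 14.9% of all genes were, and more than 4-fold above in 0, where 4.19% of all genes were. Replicate 1 of *csb-1* was more than 4-fold below wild-type in 9 members, where 10.3% of all genes were, and more than 4-fold above in 0, where 3.07% of all genes were. In 33 of the 80 members replicate 1 of *csb-1* was the highest and replicate 2 the lowest of all 6 libraries, which held for 19.2% of all genes. The reverse held for 10 members and for 18.7% of all genes.

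The marker lists differed between the *csb-1* libraries as well, and their part in these gaps was not tested. The early embryo markers summed to 313 CPM in replicate 1 of *csb-1* and 6.95 CPM in replicate 2, against 52.6 and 54.3 CPM in wild-type, with 3 of 3 more than 4-fold higher in replicate 1. The epidermal markers summed to 592 CPM in replicate 1 and 95.6 CPM in replicate 2, against 252 and 264 CPM in wild-type, with 2 of 4 more than 4-fold higher in replicate 1. Of these, *dpy-7*, a cuticle collagen, was at 316 CPM in replicate 1 and 0.0574 CPM in replicate 2, while the epidermal factor *lin-26* was at 162 CPM in replicate 1 and 66.5 CPM in replicate 2. The intestinal markers summed to 406 CPM in replicate 1 and 10203 CPM in replicate 2, against 2021 and 2541 CPM in wild-type, nearly all of it from *asp-1*, while the intestinal factor *elt-2* was at 28.6 CPM in replicate 1 and 28.7 CPM in replicate 2. The pharyngeal markers summed to 516 CPM in replicate 1 and 2740 CPM in replicate 2, against 966 and 1099 CPM in wild-type, and their genes went opposite ways. *myo-2* was at 301 CPM in replicate 1 and 2621 CPM in replicate 2, and *pha-4* was at 215 CPM in replicate 1 and 118.9 CPM in replicate 2. The neuronal markers summed to 206 CPM in replicate 1 and 275 CPM in replicate 2, against 308 and 304 CPM in wild-type, and their genes also went opposite ways. *rab-3* and *ric-4* were lower in replicate 1 than in replicate 2. *unc-119* was higher in replicate 1, where it was above both wild-type libraries, while in replicate 2 it was below both. The germline markers summed to 103 CPM in replicate 1 and 64.4 CPM in replicate 2, against 42.2 and 36.8 CPM in wild-type. The body wall muscle markers summed to 3116 CPM in replicate 1 and 5713 CPM in replicate 2, against 6010 and 6427 CPM in wild-type. *unc-54*, at 1505 CPM in replicate 1 and 3965 CPM in replicate 2, weighed most, and *unc-89* was also higher in replicate 2. *myo-3* went the other way, at 1063 CPM in replicate 1 and 738 CPM in replicate 2.

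The *xpc-1* fold change and the *csb-1* ratio share no library, so they can be set side by side gene by gene. Across the 79 members with both values, the sign was the same in 53 (67.1%), and across 17652 genes it was the same in 76.1%. Spearman's rho across genes was 0.472 for the members (Pearson's r = 0.452) and 0.644 for all genes (Pearson's r = 0.587). Genes are not independent replicates, and the points share the 4 plus 2 libraries they come from, so these are descriptions. All 24 members called higher in *xpc-1* were higher in replicate 1 of *csb-1*, which held for 95.5% of all genes called higher, with a median ratio of 35.7-fold, against 3.002-fold over those genes. Of the 17 members called lower in *xpc-1*, 10 were higher in replicate 2 of *csb-1* and 7 in replicate 1 (41.2%), where 12.6% of all genes called lower were higher in replicate 1. Those 7 were *grd-12*, *grd-14*, *grl-6*, *grl-13*, *wrt-8*, *ptr-20* and *ptr-23*, named after their values were seen.

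**Figure D4:**
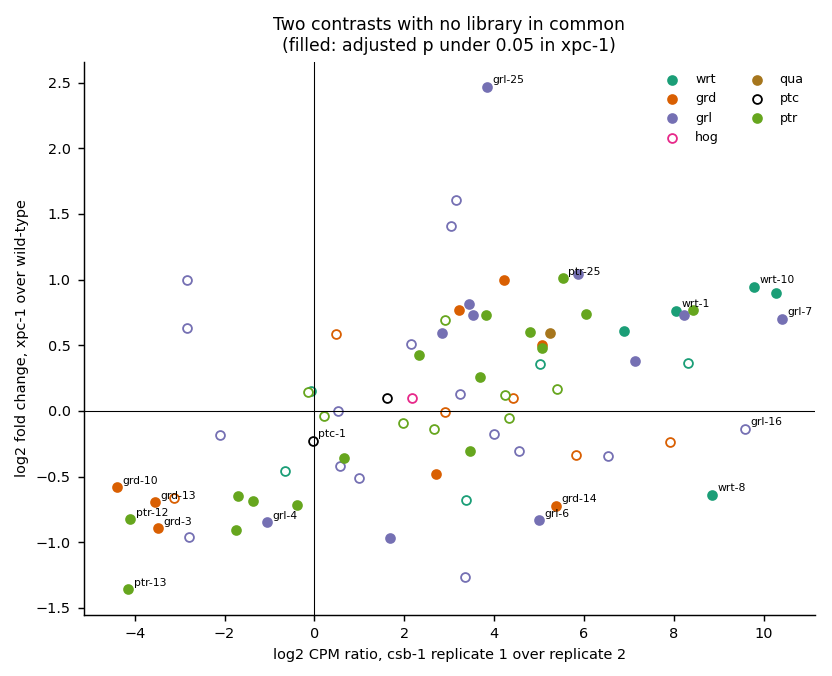
Log2 fold change of *xpc-1* over wild-type (y axis) against the log2 CPM ratio of replicate 1 over replicate 2 of *csb-1* (x axis) for the 79 members with both. Each point is 1 gene coloured by family, filled where it was called in *xpc-1*, and a library at 0 was set to 3 counts. The 24 genes called higher all lie right of 0, while the 17 called lower fall on both sides, with 10 on the left and 7 on the right.

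Some members lie beside each other, within 5000 bases. *wrt-1* (chromosome II, 7531145 to 7533246) and *wrt-10* (7533300 to 7534563) lie on opposite strands and were both higher in *xpc-1* and in replicate 1 of *csb-1*. The 3 groundhog neighbours on chromosome IV were lower in *xpc-1* and in replicate 1 of *csb-1*. *grd-14* and *grd-4* on the X chromosome differed in level, since *grd-4* stayed under 0.315 CPM in all 6 libraries. *wrt-8* and its neighbour *wrt-7* on chromosome V did so too, *wrt-7* having 0.534 and 0.472 CPM in *xpc-1*, against 0.964 and 0.673 CPM in wild-type. The cluster *grl-28*, *grl-29*, *grl-30* and *grl-31* on chromosome V stayed under 1 CPM in all 6 libraries, and *grl-9* and *grl-8* were not called.

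**Figure D5:**
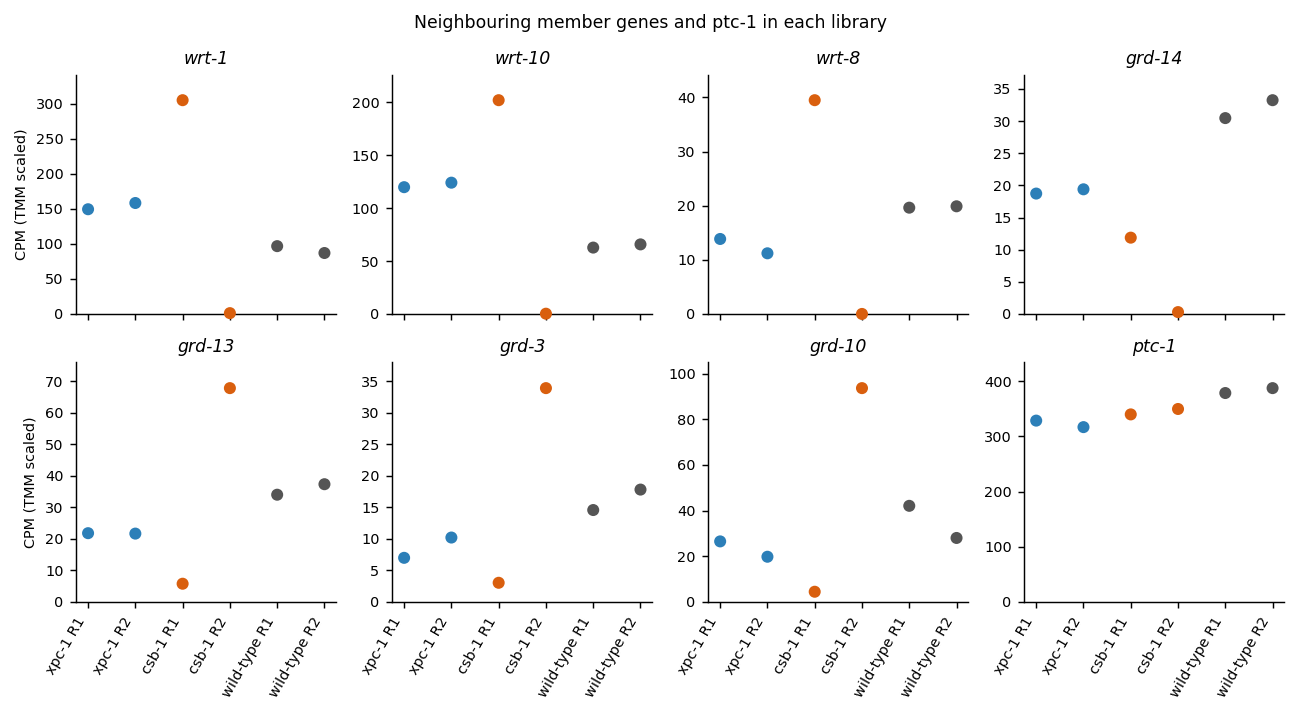
CPM (y axes, TMM scaled, from 0) of 7 members that have a neighbouring member, and of *ptc-1*, in each of the 6 libraries (x axes). Each point is 1 library, with blue for *xpc-1*, orange for *csb-1* and grey for wild-type. *grd-13*, *grd-3* and *grd-10* are highest in replicate 2 of *csb-1*, *wrt-1*, *wrt-10* and *wrt-8* in replicate 1, and *ptc-1* stays between 317 and 388 CPM.

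Of 10 other sterol-sensing proteins and relatives of the Hedgehog pathway, 3 rose in *xpc-1*, where 20.0% of all genes were called higher, and 1 fell, where 17.1% were called lower. These 4 calls in 10 genes are close to the 37.1% of all genes called. *hhat-1*, named for the acyltransferase that modifies Hedgehog in other animals, had 65.1 and 73.2 CPM in *xpc-1*, against 35.6 and 36.9 CPM in wild-type (log2 fold change 0.95, SE 0.10, edgeR adjusted p = 0.000198), and 104.7 CPM in replicate 1 and 0.746 CPM in replicate 2 of *csb-1*. *hhat-2* (log2 fold change 0.60) and the Dispatched-like *che-14* (0.58) also rose, and *ncr-1*, a homologue of the cholesterol transporter NPC1, fell (-0.44). *daf-6*, a Patched-related gene with a symbol outside the rule, had 39.1 and 39.8 CPM in *xpc-1*, against 34.4 and 34.4 CPM in wild-type, and was not called. Between the *csb-1* libraries 4 of the 10 were more than 4-fold higher in replicate 1 (17% of all genes) and 0 in replicate 2 (15.4% of all genes).

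The pathway relatives above and the molting factors here were chosen with earlier results of these data known, so their counts are descriptions only. Of 16 molting factors, 10 rose in *xpc-1* and 0 fell, where 20.0% of all genes were called higher and 17.1% lower. They were the nuclear receptor *nhr-23*, the transcription factors *blmp-1* and *bed-3*, the molting genes *mlt-8*, *mlt-9*, *mlt-10* and *mlt-11*, and the matrix genes *noah-1*, *noah-2* and *fbn-1*. *noah-1* had 697 and 705 CPM in *xpc-1*, against 346 and 347 CPM in wild-type (log2 fold change 1.03, SE 0.089, edgeR adjusted p = 8.62e-05). Their summed level was 3067 and 3191 CPM in *xpc-1*, against 1788 and 1923 CPM in wild-type, and 5256 CPM in replicate 1 and 287 CPM in replicate 2 of *csb-1*. Of the 16, 9 were more than 4-fold higher in replicate 1 of *csb-1* (17% of all genes) and 0 in replicate 2 (15.4% of all genes). The median log2 fold change in *xpc-1* was 0.36 for this list and 0.08 for the pathway relatives, beside 0.10 for the Hedgehog-related and Patched-related genes and -0.02 for all genes.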

How the data were processed

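The authors aligned the reads to WBcel235 with STAR (version not given in the sources used here), kept proper pairs (MAPQ 30 or more) outside mitochondrial DNA, and counted them with featureCounts 2.0.4. The deposited tables hold raw counts and exon lengths per gene. The file headers name the annotation of Ensembl release 105, while the study's methods name another. Per the file headers both mates were counted, without strand, although the libraries were stranded, so counts exceed the number of molecules. Depth was 41643033 to 48371365 reads per library. Intervals are 95% exact binomial intervals of the ratio of 2 counts and cover counting error only. They treat each read as independent, and since both mates were counted they are too narrow even for that.

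Members were matched by WBGene identifier through the names table. Members, gene lists and tests were chosen with earlier results of these data known. Genes that reached 10 counts in 2 or more fitted libraries were tested with edgeR 4.0.16 (R 4.3.3, TMM factors, quasi-likelihood test, two-sided), *xpc-1* or *csb-1* with wild-type in a fit of 4 libraries, and p-values were adjusted over all genes. The standard error is the log2 fold change over the root of the F statistic. DESeq2 1.42.0 was an alternative, as were other scalings, filters, halved counts, a replicate block and leaving out each library. The scripts were tested on simulated counts with the common spread of each fit. The *xpc-1* fit recovered 11 of 50 genes changed 1.5-fold, 40 of 50 changed 2-fold and 50 of 50 changed 4-fold. The *csb-1* fit recovered 0 of 50 at each size up to 8-fold. CPM used TMM factors over all 6 libraries. Each family's 3 members with the most TPM, *hog-1*, *qua-1*, both ptc genes, the 4 highest and 4 lowest called fold changes and the 4 highest and 4 lowest *csb-1* ratios were named by rule. Other names serve the counts they stand beside. Damage, repair and chromatin data of the study were not analysed here.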

Additional observations from a re-analysis of the deposited data

How the results depend on the processing

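The count of members called in *xpc-1* was 41, where 37.1% of all genes were called. It was 40 with DESeq2 (36.4%), relative log expression factors (37%) or library size only (36.7%), 43 with halved counts (42%), 44 with no filter (27.2%), 44 with at least 10 counts in every library (42.6%), and 32 to 33 without 1 library (25.8% to 28.1%). It was 0 in the fit of all 6 libraries. The replicate block gave 47, which included all 41, while it called 49.4% of all genes, and it made *ptc-1* (-0.23, edgeR adjusted p = 0.000469) and *grl-16* (-0.14, edgeR adjusted p = 0.011) pass. The replicate numbers share no stated source, so the samples were not treated as pairs. The replicate differences of *xpc-1* and wild-type correlated at 0.260 and those of *csb-1* and wild-type at -0.0036. With the block, edgeR's common spread (biological coefficient of variation) in the *xpc-1* fit was 0.088, against 0.145 without it. Whether equal replicate numbers mark a shared source was not tested. For *csb-1* the count was 0 under all alternatives, the block included, except that leaving out 1 library gave 0 to 64: it was 64 without replicate 1 of *csb-1* and 52 without replicate 2.

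Among single genes in *xpc-1*, the log2 fold change of *grd-5* (-0.01) ranged from -0.0924 to 0.072 without 1 library (0.0004 without wild-type replicate 2), and that of *ptc-3* (0.10) ranged from -0.0355 to 0.1895. Neither was called. Of the other single-gene alternatives for *xpc-1*, 461 kept direction and side of the threshold, and 86 lost the call, 41 in the fit of all 6 libraries, 39 without 1 library and 6 elsewhere (*grd-10*, *ptr-18* and *ptr-20*, all near the threshold).

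Scaling by library size only moved the median log2 fold change of all genes in *csb-1* to -0.09, against 0.15 with TMM factors, and the median log2 ratio of the *csb-1* libraries to 0.68, against 0.09. The alternatives for the single *csb-1* libraries and for Spearman's rho (0.407 to 0.496) were chosen after seeing the data. Of the 5 members with too few counts to be tested in *xpc-1*, 4 are grl genes, and too little depth and no expression cannot be told apart there.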
